A study of Mus musculus with 46 samples.

Results

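The ADAM, ADAMTS and ADAMTSL genes were followed in 2 macrophage populations sorted from mouse gliomas before and after treatment. The members were all rows of the count table whose symbol is Adam, Adamts or Adamtsl followed by a number, with at most 1 letter after an Adam number. This gave 56 of the 23329 genes in the table: 32 Adam, 19 Adamts and 5 Adamtsl genes. Each of 23 mice gave 1 library of microglia (MG) and 1 of bone marrow-derived macrophages (BMDM), 46 libraries in all. Both were CD45+CD11b+ cells negative for Ly6C and Ly6G, and MG lacked CD49d whereas BMDM carried it.

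All mice, controls included, were nTVA Ink4a/Arf KO/KO animals, in which a transgene driven by the nestin promoter carries the receptor for the RCAS virus and the Ink4a/Arf locus is lost. To induce gliomas, chicken fibroblasts of the DF1 line that produced RCAS-PDGFB-HA were injected into the brain. The injections were made at 5 to 6 weeks of age, so every tumour was driven by PDGFB in an Ink4a/Arf-null host. The 7 stages were Vehicle (4 mice), BLZ945_5day (4), IR_5day (2), IR-BLZ945_5day (3), BLZ945_Recurrent (2), IR_Recurrent (4) and IR-BLZ945_Recurrent (4). BLZ945 is an inhibitor of CSF1R, the receptor on which microglia and macrophages depend, and IR is ionizing radiation. Tumours of the 5-day stages were described as regressing and those of the recurrent stages as progressing. The sources used here give no age at collection, sex or radiation dose.

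ADAM proteins are membrane-anchored metalloproteinases. Many of them cut the outer part of other membrane proteins off the cell, a process called shedding. ADAM17 releases TNF, TNF receptors and ligands of the EGF receptor, ADAM10 cuts Notch receptors and many other membrane proteins, and in macrophages and microglia both shape which receptors remain on the surface. ADAMTS proteins are secreted, carry thrombospondin repeats and cut matrix proteins such as proteoglycans and procollagens. ADAMTSL proteins resemble ADAMTS proteins but lack the protease domain. Several ADAM genes are active mainly in the testis or epididymis, and ADAM11, ADAM22 and ADAM23 act in adhesion and as receptors without protease activity.

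The catalytic members share 1 zinc-binding site, and its coding sequence was found in the GENCODE transcripts on GRCm38, the build that mm10 denotes. All 19 Adamts genes, 19 of the 32 Adam genes and 0 of the 5 Adamtsl genes held it. It is shown here for the catalytic members on which the results turn, with capitals on the codons of the catalytic glutamate and of the 3 histidines that hold the zinc:
Adam17: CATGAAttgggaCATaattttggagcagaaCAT
Adam10: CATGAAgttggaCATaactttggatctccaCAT
Adam15: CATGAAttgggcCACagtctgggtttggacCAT
Adam8: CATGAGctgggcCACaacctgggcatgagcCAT
Adam19: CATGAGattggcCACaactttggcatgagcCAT
Adamts1: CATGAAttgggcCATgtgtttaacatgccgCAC
Adamts16: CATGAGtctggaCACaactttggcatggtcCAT
The site lies in coding exon sequence at chr12:21336732-21336764 for Adam17 (minus strand), chr3:89344780-89344812 for Adam15 (minus), chr7:139987893-139987925 for Adam8 (minus) and chr11:46125050-46125082 for Adam19 (plus). It is split by an intron in Adam10 (chr9:70754296-70761585, plus), Adamts1 (chr16:85799191-85799545, minus) and Adamts16 (chr13:70787149-70791812, minus). Of the 33 bases, 26 were identical between Adam17 and Adam10, 29 between Adam8 and Adam19 and 19 between Adamts1 and Adamts16. Adam19 and Adamts16 shared 28 bases.

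The libraries held between 3007379 and 16993474 counts. In both sorts the markers of the other population were present: the summed level of 10 microglia markers had group medians of 10634 to 28336 CPM (counts scaled to library size) in MG and 2104 to 6468 CPM in BMDM, and none of the 10 was without counts in any group. The 10 BMDM markers had group medians of 400.2 to 13203 CPM in MG and 7521 to 93316 CPM in BMDM. The libraries were sums over many cells, so fewer cells of a type and less RNA per cell cannot be told apart. In 6 libraries there was cause for doubt. MG of mouse 65971, MG of 68344 and BMDM of 122, 124 and 65698 had fewer than 11000 genes with 10 or more counts, and both libraries of mouse 65698 were set apart because their sex-linked transcripts differed from each other. Sex-linked transcripts were also uneven over the stages. Xist was 5.62 to 7.35 log2 CPM in the BLZ945_5day libraries and -3.53 to -0.99 in the IR_Recurrent ones. In Vehicle it was -3.53 in mouse 41 and 4.74 to 7.12 in the other mice. The part of sex in the comparisons of stages was not tested. The labels name no batch.

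A small set of genes made up most of the family's reads. Adam10, Adam17, Adam15, Adam8, Adam9 and Adamts1 together held 93.5% of all counts of the members. Adam6a had no count, and 10 members had fewer than 20 counts over the 46 libraries. A filter on low counts left 41 members in the joint fit of all libraries, 36 in the fit of MG and 29 in the fit of BMDM. Per kilobase of annotated exon, the highest means in Vehicle MG were 95.2 CPM for Adam10, 84.3 for Adamts1 and 71.1 for Adam15, and Adamts1 stood above Adam10 without mouse 41. In Vehicle BMDM Adam10 also led, with 75.5 CPM per kilobase, followed by Adam9 with 51.2 and Adam17 with 48.5. Adam8 led in BMDM of BLZ945_5day (49.3 CPM per kilobase) and IR-BLZ945_5day (106) whichever mouse was left out. Its mean was also highest in BMDM of BLZ945_Recurrent (74.3) and IR-BLZ945_Recurrent (92.4), where Adam10 led without mouse 67668 and without mouse 67543. Whether counting used strand is not stated, and reads of genes that overlap a member, such as Iah1 opposite Adam17 and Cox16 on the strand of Adam4, cannot be told apart from it.

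**Figure D1:**
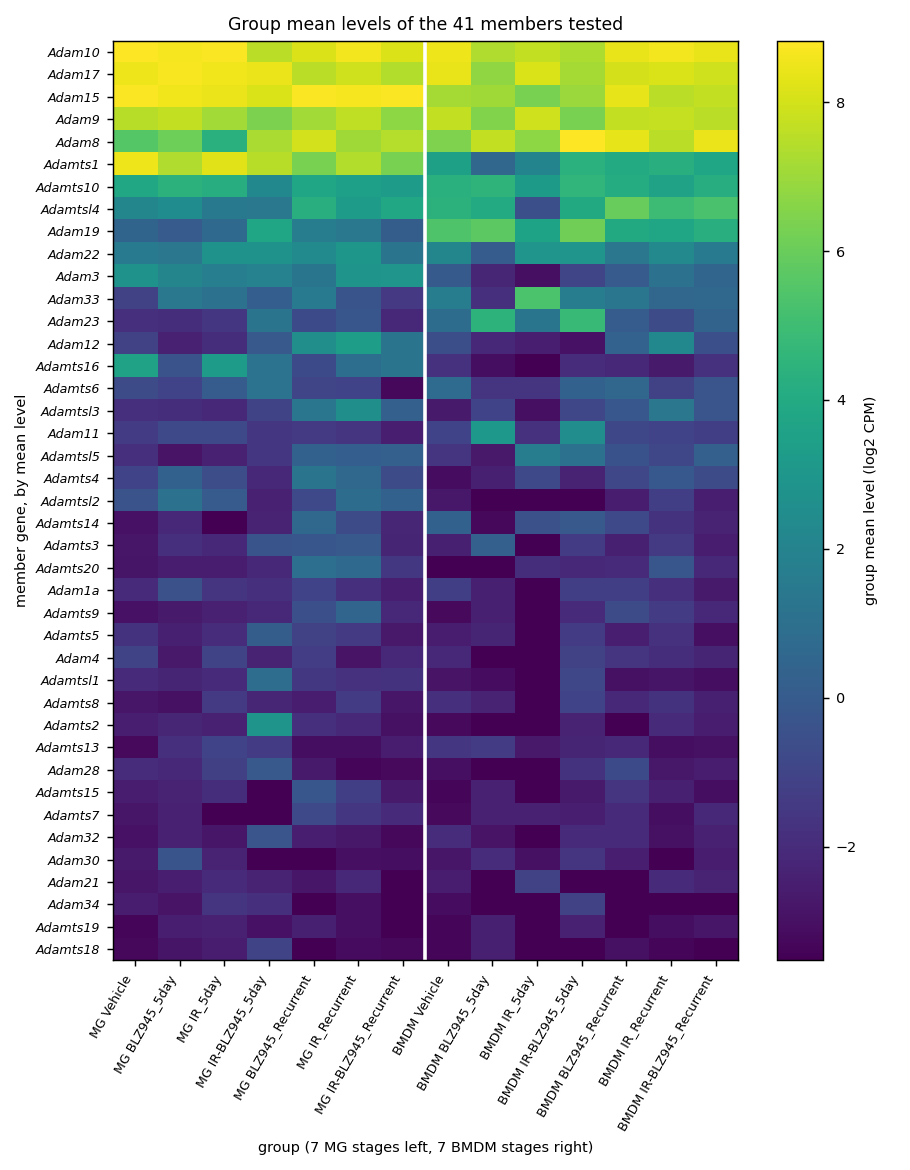
Mean level (log2 CPM, color) in each of the 14 groups for the 41 members kept by the filter in the joint fit, ordered by overall level, with the 7 stages of MG on the left and of BMDM on the right. The uppermost 6 rows are the members that hold 93.5% of the counts, and the Adamts1 row is higher in MG than in BMDM at every stage.

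The first question was which members distinguish microglia from BMDM in the same tumours. Of the 41 members tested, 15 differed at an adjusted p of 0.05 or less in the mean over the 7 stages (edgeR quasi-likelihood test, Benjamini-Hochberg adjustment over all 15901 genes), 9 higher and 6 lower in MG. Of all genes tested 33.6% differed, 18.2% higher and 15.4% lower in MG, so the members' share was near that of all genes. The median log2 fold change of the members was 0.48, against 0.09 over all genes. Of the 21 members with no count in at least 1 group, 5 were among the 15, and for 6 of them the test held no usable information. Adamts1, Adamts16, Adam15, Adam3 and Adamtsl2 were higher and Adam19, Adam23 and Adam8 lower in MG whichever mouse was left out.

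Adamts1, a secreted protease that cuts versican and aggrecan, lies at chr16:85793827-85803113 on GRCm38. Its level ran from 5.27 to 9.68 log2 CPM in MG with a median of 7.45, and from -3.53, the value of a library with no count, to 5.68 in BMDM with a median of 3.36. MG was higher than BMDM in 23 of 23 mice. The log2 fold change was 4.11 with a standard error of 0.38 (edgeR adjusted p = 1.31e-11). In Vehicle tumours the 4 MG libraries had 7.59, 9.17, 9.68 and 7.62 log2 CPM, and the 4 BMDM libraries had 2.66, 3.94, 3.80 and 3.67. The groups did not overlap, and the log2 fold change was 5.22 ± 0.84 (SE, adjusted p = 2.99e-05). The summed level of 10 endothelial markers was low in both populations of Vehicle tumours, 24.6 to 56.4 CPM in MG and 18.8 to 57.0 CPM in BMDM, while that of 10 mural and fibroblast markers was 324 to 3166 CPM in MG and 89.9 to 2245 CPM in BMDM. Astrocyte markers summed to 408 to 2395 CPM in MG and 42.1 to 144 CPM in BMDM, and glioma and oligodendrocyte precursor markers to 63.4 to 104 CPM in MG and 9.16 to 17.2 CPM in BMDM. Of the 10 genes on each of these 4 lists, 1 passed as higher in Vehicle MG, and none was without counts in either group. Their part in the values of Adamts1, Adamts16 and Adam15 was not tested. Adamts5, the neighbour of Adamts1 at a distance of 53.1 kb on chromosome 16, averaged below 1 log2 CPM in all 14 groups.

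Adamts16, a secreted protease, was higher in MG as well. Its median was 1.39 log2 CPM in MG and -2.58 in BMDM. It had counts in 23 MG libraries and in 13 BMDM libraries, with 1448 counts in all of MG and 57 in all of BMDM. MG was higher in 23 of 23 mice, and the fitted log2 fold change was 4.53 ± 0.59 (SE, adjusted p = 6.06e-08). In Vehicle tumours MG had 3.59, 2.44, 5.06 and 3.29 log2 CPM, and BMDM had -0.13, -2.60, -3.53 and -0.73, again without overlap (log2 fold change 5.35 ± 1.20, adjusted p = 0.00224). These 2 genes are not neighbours, and their zinc sites shared 19 of 33 bases.

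Adam15, a membrane protease with an integrin-binding disintegrin domain, had the tightest levels of the abundant members in MG. It ran from 7.81 to 9.17 log2 CPM with a median of 8.60 in MG, and from 5.10 to 8.68 with a median of 7.19 in BMDM. MG was higher in 23 of 23 mice, and the log2 fold change was 1.21 ± 0.13 (SE, adjusted p = 1.72e-09). In Vehicle tumours the MG values of 8.73, 8.60, 8.95 and 8.79 all lay above the BMDM values of 7.16, 7.59, 6.81 and 7.12. Adam15 passed in none of the comparisons between stages in either population.

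Adam3, which in mouse is needed on sperm for fertilization, was measured at low level in MG. Its median was 2.16 log2 CPM in MG and 0.04 in BMDM, with 1466 counts in all MG and 329 in all BMDM libraries. MG was higher in 22 of 23 mice (log2 fold change 2.95 ± 0.45, adjusted p = 1.69e-06). The gene lies in a cluster on chromosome 8 with Adam5 at 1.2 kb, Adam18 at 2.5 kb and, farther on, Adam32 and Adam9. Adam9, the only abundant gene of that cluster, did not pass between the populations (log2 fold change -0.11 ± 0.16, adjusted p = 0.719). Adamtsl2, which binds matrix microfibrils, had 318 counts in all of MG and 35 in all of BMDM and was higher in MG in 22 of 23 mice (fitted log2 fold change 4.06 ± 0.56, adjusted p = 4.79e-07).

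Adam19, a membrane protease that cuts neuregulins, was the member most strongly shifted towards BMDM. It ran from -1.90 to 5.55 log2 CPM in MG with a median of 1.06, and from 2.15 to 7.30 in BMDM with a median of 5.01. MG was lower in 21 of 23 mice, and the log2 fold change was -3.40 ± 0.37 (SE, adjusted p = 8e-10). In Vehicle tumours MG had -0.87, 1.06, -0.20 and 1.81 log2 CPM and BMDM had 6.00, 5.04, 4.24 and 6.33, without overlap (log2 fold change -4.89 ± 0.86, adjusted p = 0.000102).

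Promoters of Adamts1 and Adam19 are shown because they are the members with the largest shifts towards MG and BMDM among those of high level. They are the 250 bases before each start in RefSeq on GRCm38.p6, on the gene's strand, and RefSeq promoters were given for 30 of the 56 members. Of the 3 starts listed for Adam19, the one next to the GENCODE start is shown. Both strands were searched for 4 motifs, and capitals mark what was found. The motif of PU.1 was GAGGAAGT. The AP-1 motif was TGANTCA. The E-box was CACGTG. The TATA box was TATAAA. No motif found in these windows overlaps another.
Adamts1, chr16:85803114-85803363, minus: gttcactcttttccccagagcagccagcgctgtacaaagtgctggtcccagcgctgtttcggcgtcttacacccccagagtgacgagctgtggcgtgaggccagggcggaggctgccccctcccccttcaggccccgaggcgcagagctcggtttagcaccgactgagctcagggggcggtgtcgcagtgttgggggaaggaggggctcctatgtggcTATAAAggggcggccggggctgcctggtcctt
Adam19, chr11:46055734-46055983, plus: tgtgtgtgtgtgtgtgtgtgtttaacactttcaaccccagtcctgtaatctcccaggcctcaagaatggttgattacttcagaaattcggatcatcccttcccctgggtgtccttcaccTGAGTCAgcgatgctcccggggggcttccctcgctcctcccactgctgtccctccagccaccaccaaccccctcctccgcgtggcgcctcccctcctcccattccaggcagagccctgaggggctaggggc
Of 32851 promoters of this length, 12.37% held the TATA box, 6.749% the AP-1 motif, 6.021% the E-box and 2.441% the PU.1 motif. These are matches of letters and not measured sites. Adamts16 had no entry.

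Adam23, an adhesion protein and receptor for the secreted protein LGI1, was lower in MG in 20 of 23 mice, with a median of -1.22 log2 CPM in MG and 0.87 in BMDM (log2 fold change -2.53 ± 0.47, adjusted p = 3.67e-05). Adam8, a membrane protease of leukocytes, was lower in MG in 21 of 23 mice, with medians of 6.98 and 7.64 log2 CPM in MG and BMDM (log2 fold change -0.97 ± 0.29, adjusted p = 0.00892). Adamtsl4, a matrix protein that binds fibrillin, was lower in MG in 22 of 23 mice, with medians of 2.84 log2 CPM in MG and 4.71 in BMDM (log2 fold change -1.39 ± 0.31, adjusted p = 0.000541). Without mouse 65972 its value was -0.25, but the only IR_5day BMDM library left, that of mouse 65698, had no count of Adamtsl4. That fit cannot show whether the call depends on mouse 65972.

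Of the other 6 calls in the mean over stages, each but that of Adamts2 was lost under at least 1 alternative that could test it. Adam10 was higher in MG by 0.36 ± 0.12 on the log2 scale (adjusted p = 0.0174), and without mouse 67537 by 0.30 (adjusted p = 0.0514). Adam11 (log2 fold change -1.60, adjusted p = 0.0218) did not pass without mouse 70696 (-1.02) or with the mouse as a block (adjusted p = 0.135). Adam33 (-1.29, adjusted p = 0.0305) did not pass without any 1 of the mice 123, 65698, 65967, 65972, 67169, 67668, 68344 and 70696 (highest adjusted p = 0.185), or with the block (adjusted p = 0.107). Adamtsl1 (adjusted p = 0.00856) did not pass with the block (adjusted p = 0.0555). Adamts2 (2.94, adjusted p = 0.00687) passed in 22 of 23 fits without 1 mouse, the exception being that without 65972. Both IR_5day libraries left there, those of mouse 65698, had no count of Adamts2. That fit cannot show whether the call depends on mouse 65972. Adamts20 (1.61, adjusted p = 0.0378) did not pass without any 1 of 65696, 65698, 65967, 67668, 68344 and 78. Nor did it pass without 123 or 65972, but there 1 stage was left with no count of Adamts20 in either population, so those fits cannot show a dependence.

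**Figure D2:**
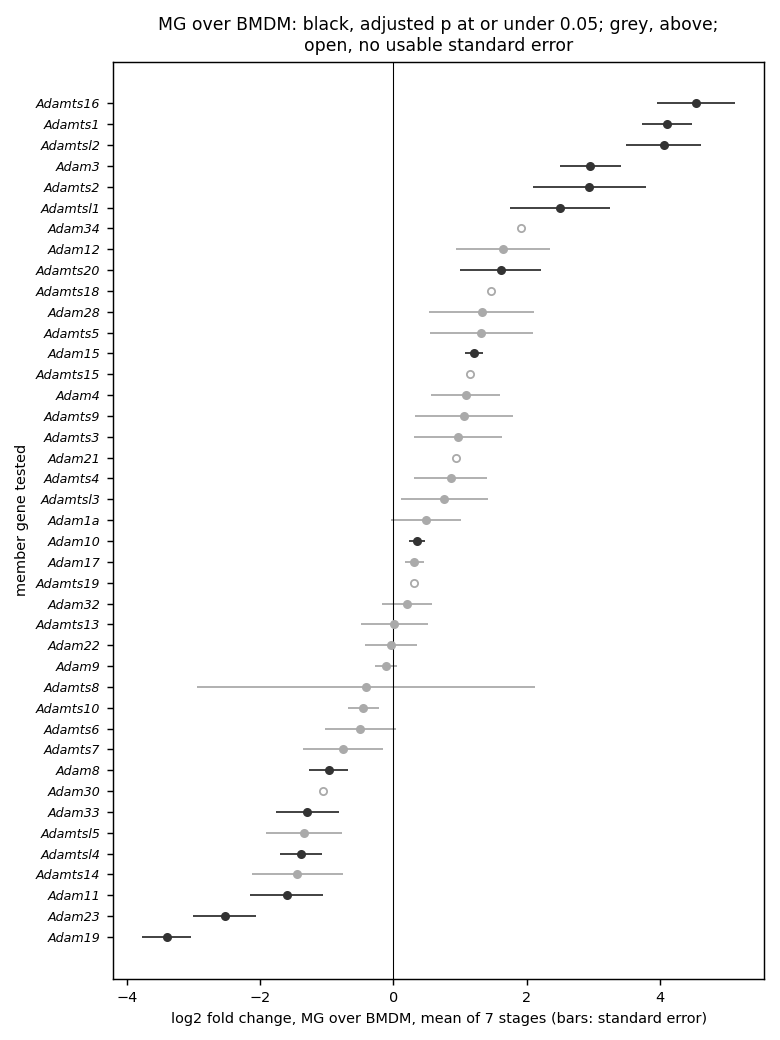
Log2 fold change of MG over BMDM, mean of the 7 stages, for each of the 41 members tested, with its standard error as a bar; black points passed an adjusted p of 0.05, and open points are the 6 members whose test held no usable information. Adamts16 (4.53) and Adamts1 (4.11) stand at the upper end, Adam19 (-3.40) and Adam23 (-2.53) at the lower end.

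In Vehicle tumours alone 7 of the 41 members differed, 3 higher and 4 lower in MG, against 9.14% of all genes (3.84% higher and 5.3% lower in MG; edgeR, adjusted p of 0.05 or less). The median log2 fold change was 0.07 over the members and 0.09 over all genes. Beyond Adamts1, Adamts16, Adam15 and Adam19, these were Adamtsl4, Adam33 and Adamts14. Adamtsl4 had 2.37, 2.81, 0.54 and 2.93 log2 CPM in MG and 4.90, 5.42, 2.57 and 4.71 in BMDM (log2 fold change -2.32 ± 0.73, adjusted p = 0.0359), and leaving out any 1 of mice 41, 65966, 65967 and 78 ended the call (highest adjusted p = 0.153). Adam33 had -2.71, 0.26, -1.83 and -0.08 log2 CPM in MG and 0.37, 0.73, 4.60 and 0.86 in BMDM (adjusted p = 0.0386). The BMDM value of 4.60 came from mouse 65967, and without that mouse the log2 fold change was -1.15 (adjusted p = 0.709) where it was -3.68 with it. Leaving out mouse 41 or 78 also ended the call, and with the block the adjusted p was 0.185. Adamts14, a procollagen N-proteinase, had 3 counts in MG and 140 in BMDM, a ratio of 0.0241 with a counting interval of 0.0049 to 0.0718. Its adjusted p of 0.0356 did not hold without any 1 of mice 41, 65966, 65967 and 78 (highest 0.156).

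**Figure D3:**
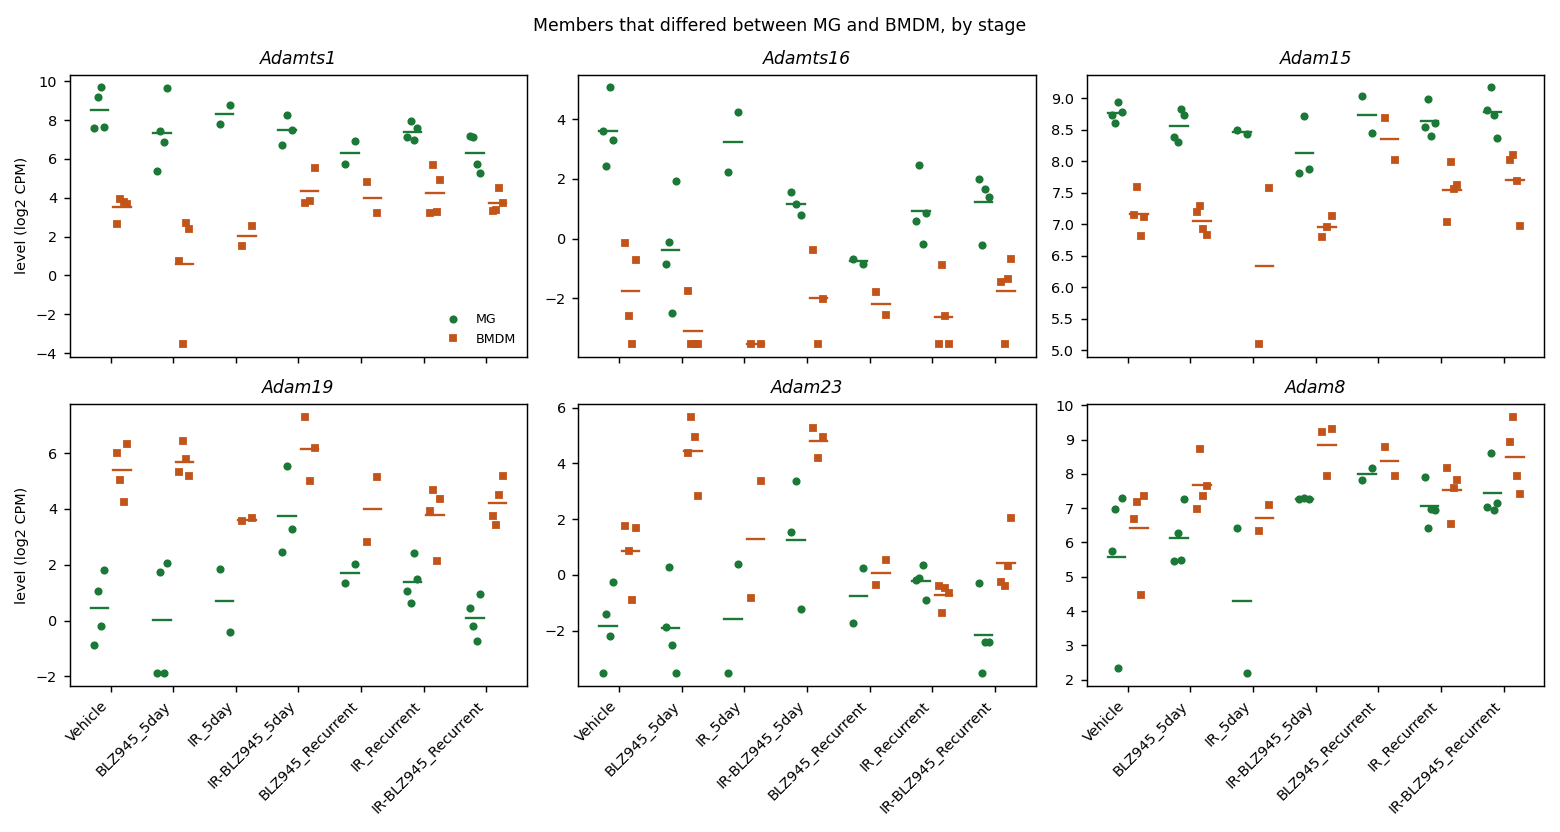
Level (log2 CPM) in every library of 6 members at each stage, MG as green circles and BMDM as brown squares beside them, with a line at the group mean; -3.53 is a library with no count. Adamts1, Adamts16 and Adam15 are higher in MG within every mouse, Adam19 is lower in MG in 21 of 23 mice, and Adam23 in BMDM is highest at BLZ945_5day and IR-BLZ945_5day.

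The second question was how the members varied over the stages. In MG 13 of 36 members tested varied over the 7 stages and in BMDM 8 of 29 (edgeR test with 6 degrees of freedom, adjusted p of 0.05 or less). The shares over all genes were 37.4% in MG and 20.7% in BMDM, so the members were near the background. The 13 in MG were Adam12, Adam17, Adam19, Adam22, Adam30, Adam32, Adamts2, Adamts6, Adamts14, Adamts16, Adamtsl2, Adamtsl3 and Adamtsl5. The 8 in BMDM were Adam8, Adam9, Adam10, Adam11, Adam19, Adam23, Adam33 and Adamtsl4. Adam19 was in both, and Adam32, Adamts2, Adamts16 and Adamtsl2 were not tested in BMDM. Adam17 and Adamts16 in MG and Adam23, Adam10 and Adam9 in BMDM kept the call in each of the 23 fits without 1 mouse. Adam30 and Adam32 in MG kept it in the 21 fits that gave them a value, which leaves out those without 123 or 65975 for Adam30 and without 65696 or 65971 for Adam32. Adam19 (adjusted p = 0.161), Adamts2 (0.096) and Adamts6 (0.133) in MG lost it without mouse 65971, and these and Adam32 (0.573) also without the doubted libraries. Adam19 in BMDM lost it without 65696 (0.0605) and Adam33 in BMDM without 65972 (0.118). The calls of Adam22, Adamts14, Adamtsl2 and Adamtsl5 in MG and of Adamtsl4 in BMDM held in 10, 12, 16, 5 and 8 of 23 such fits. A different pattern over the stages in the 2 populations was tested directly, and 3 of 41 members passed, against 4.31% of all genes: Adam17 (adjusted p = 0.00985), Adamts1 (0.036) and Adamts14 (0.0484). With the mouse as a block, Adamts1 (adjusted p = 0.0703) and Adamts14 (0.0934) did not pass. Without the 6 doubted libraries Adam17 passed (adjusted p = 0.00971) and Adamts1 (0.121) and Adamts14 (0.051) did not. Mice whose absence alone ended the call of Adamts1 were 65698, 65966, 65972, 65975, 67537, 67668, 67947, 68344, 68346 and 68362 (highest adjusted p = 0.0736), and Adamts14 kept it in 4 of 23 such fits (highest adjusted p = 0.109).

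Adam17 fell in MG of recurrent tumours. In Vehicle MG it had 8.62, 8.65, 9.08 and 7.75 log2 CPM, in BLZ945_5day 8.58, 8.60, 8.80 and 8.77, in IR_5day 8.64 and 8.51 and in IR-BLZ945_5day 8.37, 8.47 and 8.49. In recurrence it had 7.42 and 7.68 log2 CPM after BLZ945, 7.81, 8.21, 7.78 and 7.95 after IR and 7.55, 6.84, 7.75 and 7.40 after IR-BLZ945. All 9 libraries from MG of 5-day treatment thus lay above all 10 from recurrence, while 1 Vehicle library, that of mouse 78, lay among the recurrent ones. Lars2, which encodes the mitochondrial leucyl-tRNA synthetase, and Malat1, a nuclear long non-coding RNA, moved with this split. Lars2 was 11.63 to 15.22 log2 CPM in the 10 recurrent MG libraries, against 5.09 to 8.54 in the 9 of 5-day treatment, and Malat1 was 7.88 to 10.29, against 10.55 to 12.45. Lars2 was 15.22 in the library with the lowest Adam17 (mouse 67543) and 13.87 in Vehicle MG of mouse 78, and in Vehicle MG as a whole it was 6.15 to 13.87. Their part in the values of Adam17, and in the other comparisons of recurrence in MG, was not tested.

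The fall passed in IR-BLZ945_Recurrent against Vehicle MG, with a log2 fold change of -1.18 ± 0.23 (SE, edgeR adjusted p = 0.00963), and did so whichever mouse was left out. Adam17 was the only 1 of 36 members called there, against 4.82% of all genes. The median log2 fold change of the members was -0.60, against -0.02 over all genes. It also passed in IR-BLZ945_Recurrent against IR-BLZ945_5day MG (-1.15 ± 0.24, adjusted p = 0.00282) under every mouse left out. In BLZ945_Recurrent against BLZ945_5day MG it was the only member called of 36, against 8.24% of all genes (-1.14 ± 0.29, adjusted p = 0.0165). That call was lost without mouse 67668 (-0.97, adjusted p = 0.214) or 70696 (-1.34, adjusted p = 0.0535), the 2 recurrent mice. Against Vehicle MG the value in BLZ945_Recurrent was -0.97 (adjusted p = 0.0643) and in IR_Recurrent -0.54 (adjusted p = 0.26), neither of which passed.

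In BMDM the values of Adam17 followed another order. Vehicle BMDM had 8.28, 8.39, 8.85 and 8.12 log2 CPM, BLZ945_5day 6.29, 7.40, 5.42 and 8.04, IR_5day 8.38 and 7.90, and IR-BLZ945_5day 6.53, 7.39 and 7.49. The recurrent groups had 7.86 and 8.17, then 7.92, 8.25, 8.09 and 8.29, then 7.71, 7.62, 8.41 and 7.97 after BLZ945, IR and IR-BLZ945. The low BMDM values were thus at 5 days of BLZ945, alone or with IR, where the low MG values were in recurrence. In BLZ945_5day against Vehicle BMDM the log2 fold change was -1.30 ± 0.38 (adjusted p = 0.0493). Without the doubted libraries of mice 122 and 124 it was -0.66 (adjusted p = 0.252), and leaving out any 1 of 122, 123, 124, 41, 65966, 65967 and 78 also ended the call (highest adjusted p = 0.116). In IR-BLZ945_5day it was -1.20 ± 0.42 and did not pass (adjusted p = 0.184).

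**Figure D4:**
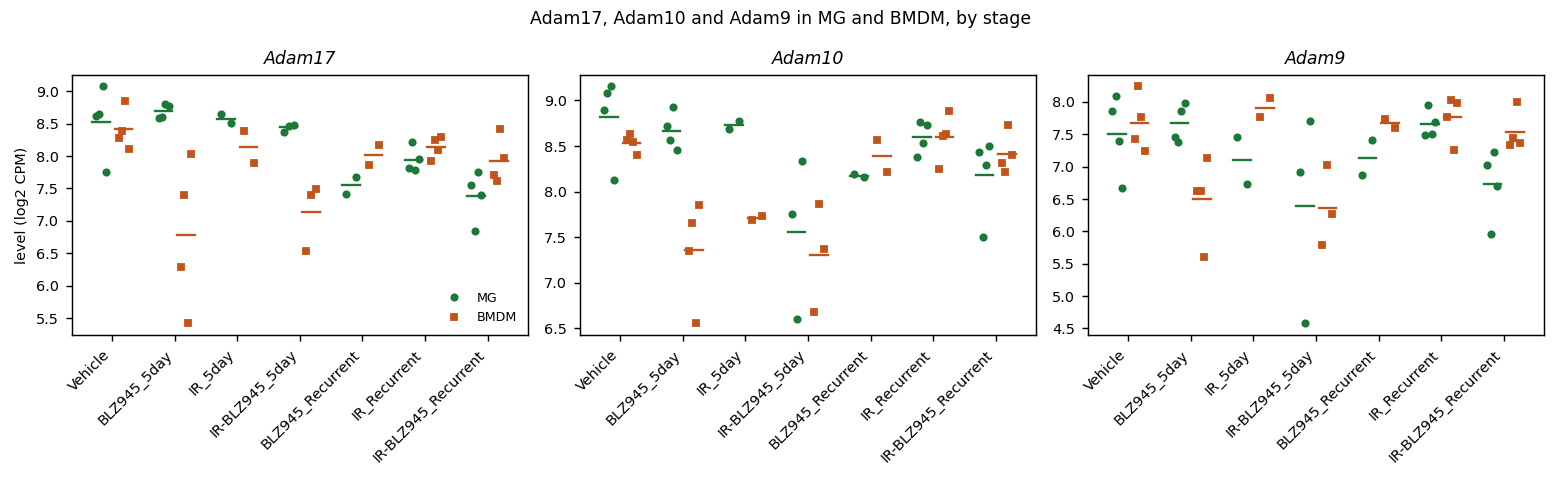
Level (log2 CPM) of Adam17, Adam10 and Adam9 in every library at each stage, MG as green circles and BMDM as brown squares, with a line at the group mean. MG values of Adam17 drop in the 3 recurrent groups, and BMDM values of all 3 genes are low at BLZ945_5day and IR-BLZ945_5day.

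Adam10 and Adam9, a broadly expressed membrane protease, fell beside Adam17 in BMDM after 5 days of BLZ945. In that comparison 4 of 29 members differed from Vehicle, 1 higher and 3 lower, against 5.51% of all genes (1.95% higher, 3.56% lower). The median log2 fold change was -0.11 over the members and -0.06 over all genes. Adam10 had 7.35, 7.65, 6.55 and 7.86 log2 CPM in BLZ945_5day BMDM, against 8.57, 8.63, 8.54 and 8.40 in Vehicle BMDM. No value overlapped, and the log2 fold change was -1.08 ± 0.26 (SE, adjusted p = 0.0198). Without the doubted libraries of mice 122 and 124 it was -0.76 (adjusted p = 0.151), and without mouse 65966 it was -1.04 (adjusted p = 0.0501). Adam9 had 6.62, 6.63, 5.60 and 7.14 log2 CPM in BLZ945_5day and 7.42, 8.24, 7.77 and 7.25 in Vehicle BMDM (log2 fold change -1.11 ± 0.32, adjusted p = 0.0424). Without the doubted libraries it was -0.80 (adjusted p = 0.226), and leaving out any 1 of 122, 123, 124, 41, 65966 and 65967 ended the call (highest adjusted p = 0.141).

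Markers of the sorted cells moved with these falls. The 10 microglia markers summed to 925 to 2760 CPM in BLZ945_5day BMDM, against 4815 to 9288 CPM in Vehicle BMDM, and 7 of 10 passed as lower. The 10 BMDM markers summed to 66328 to 102369 CPM, against 26832 to 49788 CPM, with 2 higher and 1 lower, and the 8 dendritic cell markers to 2400 to 3705 CPM, against 792 to 1298 CPM, with 4 higher. None of these markers was without counts in either group, and their part in the values of Adam17, Adam10, Adam9 and Adam23 was not tested.

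The BMDM of IR-BLZ945_5day tumours had like values that did not pass: Adam10 -1.11 ± 0.29 (adjusted p = 0.082) and Adam9 -1.23 ± 0.35 (adjusted p = 0.107) against the same Vehicle libraries. In IR-BLZ945_Recurrent BMDM Adam10 had 8.31, 8.22, 8.73 and 8.40 log2 CPM, against 6.68, 7.86 and 7.36 in IR-BLZ945_5day BMDM. The log2 fold change was 1.04 ± 0.29 (adjusted p = 0.0459), and it did not pass without any 1 of mice 65696, 67169, 67537, 67543, 67947 and 68362 (highest adjusted p = 0.213). Along the 7 stages Adam10 (adjusted p = 0.00606) and Adam9 (0.0153) varied in BMDM whichever mouse was left out.

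Adam23 rose in BMDM under BLZ945. BLZ945_5day BMDM had 4.39, 5.67, 4.94 and 2.84 log2 CPM and IR-BLZ945_5day BMDM 5.26, 4.20 and 4.94, against 1.76, 0.87, -0.88 and 1.68 in Vehicle BMDM. All 7 treated libraries lay above all 4 Vehicle libraries. The log2 fold change was 3.70 ± 0.84 in BLZ945_5day (SE, adjusted p = 0.0134), which held whichever mouse was left out, and 3.80 ± 0.87 in IR-BLZ945_5day (adjusted p = 0.0456). The call in IR-BLZ945_5day was lost without any 1 of 41, 65696, 65966, 65967, 67537 and 78 (highest adjusted p = 0.165). In IR-BLZ945_5day Adam23 was the only member called of 29, against 0.57% of all genes, and the members' median log2 fold change was 0.89, against 0.05 over all genes. The 2 comparisons share their Vehicle libraries.

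Adam23 was lower in recurrent than in 5-day BMDM. It had -0.35 and 0.53 log2 CPM in BLZ945_Recurrent and -0.26, -0.40, 0.32 and 2.04 in IR-BLZ945_Recurrent BMDM. Against the 5-day group of the same treatment the log2 fold change was -4.71 ± 1.21 after BLZ945 (adjusted p = 0.0233) and -4.15 ± 0.88 after IR-BLZ945 (adjusted p = 0.0119). These were 1 of 29 and 1 of the 2 of 29 members called, against 6.82% and 3.69% of all genes. Leaving out recurrent mouse 67668 (-4.33, adjusted p = 0.236) or 70696 (-5.24, adjusted p = 0.129) ended the first call, and leaving out mouse 67169 (-3.91, adjusted p = 0.0517) the second. After IR alone Adam23 had -0.39, -1.35, -0.45 and -0.65 log2 CPM in IR_Recurrent and -0.82 and 3.37 in IR_5day BMDM. That call (-3.32 ± 0.93, adjusted p = 0.0253) rested on the IR_5day value of mouse 65972. Without that mouse the log2 fold change was 0.20 (adjusted p = 0.948), and it was lost also without 68343, 68344, 68345 or 68346. All comparisons of recurrent with 5-day BMDM run along a shift of Lars2 and Malat1: Lars2 was 11.43 to 12.98 log2 CPM in recurrent BMDM, against 1.90 to 9.70 in 5-day BMDM, and Malat1 was 7.74 to 10.79, against 11.15 to 14.05. The part of this shift in the values of Adam23, Adam10, Adam33 and Adamtsl4 was not tested.

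Adam11, a related adhesion protein, had a like pattern. It had 4.97, 2.30, 1.70 and 3.32 log2 CPM in BLZ945_5day BMDM, against 0.75, -2.03, -3.53 and 0.66 in Vehicle BMDM, and the log2 fold change of 3.93 ± 1.29 did not pass (adjusted p = 0.0738). It varied over the stages in BMDM (adjusted p = 0.0145), a call lost without mouse 122 (adjusted p = 0.0527). Adam22, the third adhesion member, did not follow it (log2 fold change 0.16 ± 1.10, adjusted p = 0.955, in the same comparison). Markers of dendritic cells moved with Adam23 and Adam11 under BLZ945, but were also high in IR_5day BMDM. The summed level of the 8 listed markers was 2400 to 3705 CPM in BLZ945_5day and 2874 to 3805 CPM in IR-BLZ945_5day BMDM, against 792 to 1298 CPM in Vehicle BMDM. It was 157 to 435 CPM in BLZ945_Recurrent and 210 to 560 CPM in IR-BLZ945_Recurrent BMDM. None of the 8 was without counts in these groups, and 4 of 8 passed as higher in BLZ945_5day against Vehicle. In IR_5day BMDM of mice 65698 and 65972 the markers summed to 2312 and 2383 CPM. There Adam23 had -0.82 and 3.37 log2 CPM and Adam11 -3.53 and 0.00. The part of these markers in the values of Adam23 and Adam11 was not tested.

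Adamts16 was highest in MG of Vehicle and IR_5day tumours. The Vehicle values are given above; BLZ945_5day MG had -0.85, -0.12, -2.49 and 1.91 log2 CPM, IR_5day 2.22 and 4.24, IR-BLZ945_5day 1.56, 1.15 and 0.78, BLZ945_Recurrent -0.67 and -0.85, IR_Recurrent 0.60, 2.46, -0.19 and 0.87, and IR-BLZ945_Recurrent 2.00, -0.20, 1.65 and 1.39. It varied over the stages in MG whichever mouse was left out (adjusted p = 0.0032). Of the single comparisons with Vehicle, only BLZ945_Recurrent passed, with a log2 fold change of -4.79 ± 1.23 (adjusted p = 0.0335). There it was 1 of 36 members called, against 3.53% of all genes, and the members' median was 0.83, against 0.00 over all genes. The call was lost without mouse 41 (adjusted p = 0.0736), 65967 (0.0896), 67668 (0.203) or 70696 (0.233). In the same libraries the BMDM markers summed to 4140 to 22266 CPM in BLZ945_Recurrent MG, against 1416 to 1948 CPM in Vehicle MG (3 of 10 passed as higher), and the microglia markers to 8085 to 13183 CPM, against 14245 to 33597 CPM (4 of 10 lower). Glioma and oligodendrocyte precursor markers summed to 433 to 772 CPM, against 63.4 to 104 CPM (6 of 10 higher). None of them was without counts, and their part in the value of Adamts16 was not tested. The values against Vehicle were -3.46 in BLZ945_5day (adjusted p = 0.0691), -2.63 in IR-BLZ945_5day (0.0569), -2.64 in IR_Recurrent (0.0708) and -2.53 in IR-BLZ945_Recurrent (0.0687).

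Adamts1 passed in no single comparison between stages. Against Vehicle MG the log2 fold change was -2.24 ± 0.70 in IR-BLZ945_Recurrent (adjusted p = 0.066) and -2.27 ± 0.92 in BLZ945_Recurrent (adjusted p = 0.221). IR-BLZ945_Recurrent MG had 7.18, 7.15, 5.71 and 5.27 log2 CPM and BLZ945_Recurrent MG 5.73 and 6.93, below all 4 Vehicle values.

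In MG of IR-BLZ945_5day tumours 5 of 36 members differed from Vehicle, 4 higher and 1 lower, against 13.4% of all genes (9.55% higher, 3.89% lower). The members' median log2 fold change was 1.62, against -0.02 over all genes. Adam19, Adam32, Adamts2 and Adamts6 were called higher and Adam10 lower. Library MG 65971, the shallowest of all, had the highest Adam19, Adam32, Adamts2 and Adamts6 and the lowest Adam10 of this group. Adamts2, a procollagen N-proteinase, had 1.19, 6.39 and 0.98 log2 CPM in mice 65696, 65971 and 67537, against -2.71, -3.53, -2.72 and -1.10 in Vehicle. Without mouse 65971 its log2 fold change was 4.07 (adjusted p = 0.0983) where it was 7.99 (adjusted p = 0.00612) with it. Adamts6 had 0.97, 5.12 and -2.54 log2 CPM, against -0.70, -1.13, -0.32 and -0.41 in Vehicle, and Adam19 had 2.45, 5.55 and 3.27, against -0.87, 1.06, -0.20 and 1.81. Leaving out other mice ended calls as well. Adam10 lost its call without 41, 65696, 65966 or 65967, and Adamts6 without 41, 65966, 65967 or 78. Adam19 lost its call without 41 or 65966, and Adam32 without 41, 65966 or 65967.

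Without the doubted libraries none of these 5 passed: the adjusted p was 0.101 for Adamts2, 0.706 for Adamts6, 0.128 for Adam19, 0.308 for Adam32 and 0.151 for Adam10. Adam32 rested on 31 counts in IR-BLZ945_5day and 3 in Vehicle MG, a ratio of 23.5 with a counting interval of 7.32 to 120. The summed level of the 7 choroid plexus markers, all with counts, was 22.3 to 1759 CPM in this group and 1.19 to 6.13 CPM in Vehicle MG. It was lowest, 22.3 CPM, in MG of mouse 65971, where Adamts2, Adamts6 and Adam19 were highest.

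Against IR-BLZ945_5day, MG of IR-BLZ945_Recurrent tumours had 11 of 36 members called, 1 higher and 10 lower, against 28.1% of all genes (11.5% higher, 16.6% lower). The median was -1.15 over the members and -0.08 over all genes. The 10 lower were Adam17, Adam19, Adam22, Adam23, Adam28, Adam32, Adam33, Adamts2, Adamts5 and Adamts6, and Adamtsl2 was higher. Adamts2 (adjusted p = 0.0327), Adamts6 (0.0325), Adam19 (0.0327), Adam33 (0.0127), Adam28 (0.031) and Adam17 (0.00928) passed also without the doubted libraries. In the same comparison the choroid plexus markers summed to 5.41 to 26.6 CPM in IR-BLZ945_Recurrent MG, where Kl and Otx2 had no count, against 22.3 to 1759 CPM in IR-BLZ945_5day MG, and 7 of 7 passed as lower. The 8 oligodendrocyte markers summed to 204 to 265 CPM, against 250 to 559 CPM with Cldn11 at 0 (2 higher and 1 lower of 7 tested), and the dendritic cell markers to 14.9 to 37.0 CPM, against 71.0 to 97.6 CPM (1 higher and 1 lower of 7 tested). Glioma and oligodendrocyte precursor markers summed to 90.0 to 363 CPM, against 4.88 to 40.1 CPM with Olig2 and Gpr17 at 0 (6 of 10 higher). Lars2 was 12.79 to 15.22 log2 CPM, against 6.23 to 8.54. Their part in these calls was not tested. Leaving out 65971 ended the calls of Adam22, Adam23, Adamts5 and Adamtsl2, and so did leaving out some other mice. Adam22 and Adamts5 lost theirs also without 67169, 67543 or 68362. Adam23 lost its call without 67543, 67947 or 68362, and Adamtsl2 without 67537. Of the 7 fits without 1 mouse, the calls of Adam22, Adam23, Adamts5 and Adam33 each held in 3, that of Adam28 in 2 and that of Adamtsl2 in 5. Adam28, a membrane protease of lymphocytes, had 1 count in all of IR-BLZ945_Recurrent and 57 in IR-BLZ945_5day MG, of which 52 came from mouse 65696.

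Adam12, a membrane protease of tissues that grow or repair, varied over the stages in MG (adjusted p = 0.0305). It had 1.17 and 3.99 log2 CPM in BLZ945_Recurrent, 2.44, 2.96, 4.07 and 3.99 in IR_Recurrent and 2.56, 0.72, 2.02 and -0.33 in IR-BLZ945_Recurrent MG, against -0.70, -2.64, -0.88 and -0.24 in Vehicle MG. None of the comparisons with Vehicle passed (adjusted p = 0.159, 0.0905 and 0.279). Adamtsl3, a matrix protein of the ADAMTS-like group, varied likewise (adjusted p = 0.0262), with a log2 fold change of 4.71 ± 1.38 in IR_Recurrent against Vehicle MG that did not pass (adjusted p = 0.0579). Without any 1 of 41, 65966, 65967, 67543, 68344, 68345, 68346 and 78 the call over stages of Adam12 was lost (highest adjusted p = 0.0768), and without any 1 of 41, 65966, 68344, 68345 and 68346 that of Adamtsl3 (highest 0.0996).

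Transcripts of glioma and oligodendrocyte precursor cells moved with these 2 genes between Vehicle and recurrent MG, but not in IR-BLZ945_5day MG. The summed level of 10 such markers was 433 to 772 CPM in BLZ945_Recurrent and 363 to 708 CPM in IR_Recurrent MG, and 90.0 to 363 CPM in IR-BLZ945_Recurrent MG, against 63.4 to 104 CPM in Vehicle MG. All 10 had counts in each of these groups, and 6 of 10 passed as higher in each recurrence. In IR-BLZ945_5day MG of mice 65696, 65971 and 67537 the markers summed to 21.9, 4.88 and 40.1 CPM. There Adam12 had -1.71, 4.98 and -3.53 log2 CPM and Adamtsl3 2.57, -3.53 and -1.95. The 4.98 of Adam12 came from MG of mouse 65971, a doubted library and the shallowest of all. The part of these markers in the values of Adam12 and Adamtsl3 was not tested.

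The remaining calls were in BMDM after IR. In IR_Recurrent against IR_5day BMDM 3 of 29 members passed, 1 higher and 2 lower, against 12.5% of all genes, 7.06% higher and 5.48% lower (the median log2 fold change was 0.86 over the members and 0.21 over all genes). Adam33, a membrane protease linked to asthma in humans, had -0.26, 1.47, 0.08 and 0.92 log2 CPM in IR_Recurrent and 4.77 and 5.88 in IR_5day BMDM (log2 fold change -4.82 ± 1.39, adjusted p = 0.0282). Adamtsl4 had 6.07, 4.92, 4.09 and 4.75 in IR_Recurrent and -3.53 and 2.46 in IR_5day BMDM (3.64 ± 1.00, adjusted p = 0.0225). The 10 mural and fibroblast markers summed to 1260 to 2247 CPM in IR_Recurrent BMDM, against 35.7 to 105 CPM in IR_5day BMDM, where 5 of them had no count (2 of 10 passed as higher). The dendritic cell markers summed to 78.1 to 157 CPM, against 2312 to 2383 CPM, all with counts (4 of 8 lower). Their part in the values of Adam33 and Adamtsl4 was not tested. The IR_5day group held 2 mice, 1 of them 65698. Adamtsl4 had a log2 fold change of 2.64 without 65698 (adjusted p = 0.121) and of 3.12 without 68343 (adjusted p = 0.0522), and Adam33 lost its call without any 1 of 65698, 65972, 68343, 68345 and 68346 (highest adjusted p = 0.0921). Adam8 varied over the stages in BMDM (adjusted p = 0.0399), with 9.22, 7.95 and 9.31 log2 CPM in IR-BLZ945_5day and 6.70, 7.17, 4.48 and 7.35 in Vehicle. That comparison gave 2.24 ± 0.60 and did not pass (adjusted p = 0.0845). The 8 neutrophil markers summed to 2502, 199 and 1688 CPM in the same IR-BLZ945_5day BMDM libraries, with Camp at 0, and to 995, 275, 335 and 1682 CPM in the Vehicle ones, and 0 of 7 tested passed. Their part in the values of Adam8 was not tested. The call over stages was lost without the doubted libraries (adjusted p = 0.0757) and without any 1 of 41, 65696, 65698, 65966, 67169, 67537, 67543, 68345 and 68346 (highest adjusted p = 0.0761).

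In the other 8 comparisons no member passed the edgeR test. In MG these were BLZ945_5day against Vehicle (0.303% of all genes called, 4 members with an unadjusted p under 0.05 and 1 called by DESeq2), IR_5day against Vehicle (1.99%, 0 and 0), IR_Recurrent against Vehicle (4.33%, 11 and 4) and IR_Recurrent against IR_5day (11.6%, 8 and 2). In BMDM these were, each against Vehicle, IR_5day (1.07%, 5 and 1), BLZ945_Recurrent (0%, 2 and 0), IR_Recurrent (1.87%, 4 and 1) and IR-BLZ945_Recurrent (0.0275%, 3 and 1). The percentages are edgeR calls after adjustment and cannot be set against the 2 counts beside them. For an unadjusted p and for DESeq2 the shares of all genes are not given, and nothing is read from those counts.

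Inhibitors and partners of these proteases were followed as lists chosen with earlier results known. Their counts between MG and BMDM stand against the 33.6% of all genes called there, 18.2% higher and 15.4% lower in MG, and nothing is read from the counts of the lists that follow. Of the 6 inhibitors, MG was higher than BMDM for 2 and lower for 1 in the mean over stages. Timp2, a secreted inhibitor of metalloproteinases, averaged 10.15 log2 CPM in MG and 8.79 in BMDM (log2 fold change 1.20 ± 0.17, adjusted p = 2.45e-07), and Reck, a membrane-anchored inhibitor, averaged 1.41 in MG and -0.50 in BMDM (2.20 ± 0.45, adjusted p = 0.000181). Timp1 averaged -0.64 in MG and 0.40 in BMDM (-1.82 ± 0.64, adjusted p = 0.024). In MG the inhibitors A2m, Timp1 and Timp4 passed as higher in IR_Recurrent, with log2 fold changes of 8.25 ± 0.95, 5.83 ± 1.28 and 4.19 ± 0.88, and in IR-BLZ945_Recurrent, with 6.61 ± 0.92, 5.48 ± 1.27 and 3.18 ± 0.86, each against Vehicle. Of all genes 4.33% and 4.82% were called in these 2 comparisons, in either direction.

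Among 13 genes for the transport and maturation of ADAM10 and ADAM17, MG was higher for 3 and lower for 1. Tspan14, a tetraspanin that carries ADAM10, averaged 8.04 log2 CPM in MG and 7.12 in BMDM (0.95 ± 0.12, adjusted p = 4.06e-08). In BLZ945_5day BMDM 3 of 12 tested passed as higher than in Vehicle and 0 as lower, against 1.95% and 3.56% of all genes. The 3 were Tspan33, another carrier of ADAM10 (2.11 ± 0.43, adjusted p = 0.00679), Frmd8, which stabilizes the carrier of ADAM17 (1.10 ± 0.27, adjusted p = 0.0229), and Tspan17 (2.24 ± 0.58, adjusted p = 0.0279). Adam17, Adam10 and Adam9 were called lower in the same comparison, but not without the doubted libraries.

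Of 23 tested genes for proteins shed by ADAM10 or ADAM17, 10 passed as higher and 8 as lower in MG. Csf1r (log2 fold change 1.57 ± 0.12), Lag3 (3.22 ± 0.28) and Csf1 (2.95 ± 0.29) were higher and Cd44 (-2.32 ± 0.18) lower, with adjusted p between 1.94e-13 and 6.06e-11. In BLZ945_5day against Vehicle BMDM, where 3.56% of all genes were called lower and 1.95% higher, 2 passed, both lower: Mertk (-1.44 ± 0.38, adjusted p = 0.031) and Csf1r (-1.12 ± 0.30, adjusted p = 0.0335). In IR-BLZ945_Recurrent against Vehicle MG, where Adam17 fell, 1 of 23 passed, against 4.82% of all genes: Cx3cl1 (3.36 ± 0.73, adjusted p = 0.0157).

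Of 15 genes for matrix proteins cut by ADAMTS enzymes, 5 passed as higher and 1 as lower in MG. Thbs1, thrombospondin 1, averaged 5.09 log2 CPM in MG and 7.48 in BMDM (-2.16 ± 0.34, adjusted p = 3.09e-06). In IR_Recurrent against Vehicle MG 4 of 15 passed, all higher, against 4.33% of all genes called in either direction. Among them were Ncan (5.41 ± 0.92, adjusted p = 0.00206) and Bcan (4.48 ± 1.10, adjusted p = 0.0207), brain proteoglycans, beside the glioma markers given above.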

How the data were processed

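The deposited table holds whole-number read counts per gene for 46 libraries, raw and not normalized by the authors. Per the labels' protocols, MG and BMDM were sorted into TriZOL and total RNA was amplified with a Smart-Seq kit. The submitters' processing notes name CASAVA 1.8, STAR 2.5.0e, HTSeq, DESeq2 and mm10; the gene annotation and strand setting are not given in the sources used here. The members and lists were chosen with earlier results of these data known.

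Counts were scaled by TMM and tested with edgeR 4.0.16 (limma 3.58.1, R 4.3.3): quasi-likelihood F tests with robust fitting after filterByExpr (minimum count 10, minimum total 15), Benjamini-Hochberg adjustment over all genes kept and a threshold of 0.05. Populations were compared in 1 fit of 46 libraries (15901 genes) and stages in a fit of MG (14534 genes) and a fit of BMDM (14568 genes). Levels are log2 CPM with a prior count of 1. A standard error is the size of the log2 fold change over the square root of F. Count ratios carry exact intervals of level 0.95, which cover counting error only. Separate mice are replicates. No 2 libraries of a group agreed within sampling noise (smallest chi-square per degree of freedom 10.7). The named genes are all members called in any comparison and the catalytic ADAMs 8, 9, 10, 12, 15, 17, 19, 28 and 33, with values per library for those of them listed in the plan. Of the genes on each pathway list, at most 4 per comparison are named, by smallest p.

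MG and BMDM of a mouse come from the same animal per the labels, so they are pairs. Their deviations from the group means correlated between -0.09 and 0.44 (median 0.15) over 23 mice, above 0.1 in 13, and 18 mice correlated best with their own partner. Alternatives were DESeq2 1.42.0, DESeq2-type (RLE) size factors, no low-count filter, the mouse as a block, a term for the style of mouse number, each mouse left out and, chosen after seeing the data, the 6 doubted libraries left out and a single population term. The scripts were tested on simulated data.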

Additional observations from a re-analysis of the deposited data

Results flagged for a closer look

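Of 112 groups of 4 libraries examined over 14 genes, 9 held a library far from the other 3, and chance gives about 1 in 20. Adam11 in IR-BLZ945_Recurrent BMDM was -3.53 log2 CPM in mouse 67947, with the others between -0.63 and -0.25. Adam12 in BLZ945_5day was 2.23 in BMDM of mouse 122 and 1.04 in MG of mouse 123, with no count in the others. Adam22 was 0.07 in IR-BLZ945_Recurrent BMDM of mouse 67543 (others 2.01 to 2.14) and 3.90 in Vehicle BMDM of mouse 65967 (others 1.48 to 1.71). Adam33 was 4.60 in Vehicle BMDM of mouse 65967 (others 0.37 to 0.86). Adam8 was 8.60 in IR-BLZ945_Recurrent MG of mouse 67543 (others 6.94 to 7.16). Adam9 was 8.01 in IR-BLZ945_Recurrent BMDM of mouse 67947 (others 7.33 to 7.44). Adamts16 was -1.76 in BLZ945_5day BMDM of mouse 122, with no count in the others. Where the others had no count, as for Adam12 and Adamts16, any count would have been flagged, and the rate of 1 in 20 does not apply.

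The stage pattern differed between MG and BMDM, by the edgeR interaction test with 6 degrees of freedom, for Adam17 (adjusted p = 0.00985), Adamts1 (0.036) and Adamts14 (0.0484). With the mouse as a block Adam17 passed (adjusted p = 0.0041) while Adamts1 (0.0703) and Adamts14 (0.0934) did not.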

How the results depend on the processing

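Of 1540 values of the 76 called results of single members under the alternatives, 1241 kept the threshold. Another 298 missed it with no change of direction seen, and 1 turned. Adam23 in IR_Recurrent against IR_5day BMDM ranged from -4.25 without mouse 65698 to 0.20 without mouse 65972. The tests over all stages and of stage by population give no direction, so for them only the threshold was compared. A turn could be seen only in the other results. The causes were not tested. With the mouse as a replicate block, the counts of members called were 13 between MG and BMDM over the stages, 7 in Vehicle and 2 for stage by population, against 15, 7 and 3 without it. The calls of Adam11, Adam33 and Adamtsl1 between MG and BMDM, of Adam33 in Vehicle and of Adamts1 and Adamts14 for stage by population were lost with it, and it ended no other call. With 1 population term, chosen after seeing the data, 13 members passed between MG and BMDM.

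The share of all genes called under each alternative is not given in this section, so nothing about the members is read from its counts. Counts of members called moved by more than 1.5 times as follows. With DESeq2 they were, in BMDM against Vehicle, 8 in BLZ945_5day, 1 in IR_5day, 4 in IR-BLZ945_5day, 1 in IR_Recurrent and 1 in IR-BLZ945_Recurrent, and against the 5-day group 2 for BLZ945, 6 for IR and 5 for IR-BLZ945. In MG against Vehicle DESeq2 gave 1 in BLZ945_5day, 10 in IR-BLZ945_5day, 2 in BLZ945_Recurrent, 4 in IR_Recurrent and 4 in IR-BLZ945_Recurrent, and against the 5-day group 2 after BLZ945 and 2 after IR; stage by population gave 6. With the style of mouse number as a term, BMDM gave 4 in IR-BLZ945_5day against Vehicle and 0 after BLZ945 and 4 after IR-BLZ945 against the 5-day group. MG then gave 8 over the stages, 3 in BLZ945_Recurrent, 2 in IR_Recurrent and 3 in IR-BLZ945_Recurrent against Vehicle and 2 after BLZ945 against the 5-day group. Without the low-count filter, IR-BLZ945_5day BMDM gave 0, IR-BLZ945_Recurrent against 5-day BMDM 1 and stage by population 1. With RLE size factors BLZ945_5day BMDM gave 2 and IR-BLZ945_Recurrent against 5-day BMDM 1. Without the doubted libraries, chosen after seeing the data, BMDM gave 1 in BLZ945_5day and 5 in IR-BLZ945_5day against Vehicle and 2 after BLZ945 against the 5-day group. MG then gave 1 in BLZ945_5day, 3 in IR-BLZ945_5day, 6 in BLZ945_Recurrent, 3 in IR_Recurrent and 2 in IR-BLZ945_Recurrent against Vehicle, and 3 after BLZ945 and 2 after IR against the 5-day group.

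Leaving out 1 mouse at a time gave 12 to 18 members called between MG and BMDM over the stages, 4 to 5 in Vehicle, 1 to 5 for stage by population, 7 to 18 over the stages in MG and 6 to 10 in BMDM. In MG against Vehicle the ranges were 0 to 1 in BLZ945_5day, 0 to 0 in IR_5day, 1 to 9 in IR-BLZ945_5day, 0 to 2 in BLZ945_Recurrent, 0 to 1 in IR_Recurrent and 1 to 2 in IR-BLZ945_Recurrent. Against the 5-day group they were 0 to 5 for BLZ945, 0 to 1 for IR and 6 to 11 for IR-BLZ945. In BMDM against Vehicle they were 1 to 5 in BLZ945_5day, 0 to 3 in IR_5day, 0 to 3 in IR-BLZ945_5day and 0 to 0 in each recurrence, and against the 5-day group 0 to 4 for BLZ945, 0 to 2 for IR and 0 to 4 for IR-BLZ945. Where a group of 2 mice lost 1, the lone library was assumed to vary like the other groups. Where that library had no count of a member, as for Adamtsl4 without mouse 65972, the fit cannot show whether the call depends on the mouse. Depth limits the members of low count most: 10 had fewer than 20 counts in all.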
